A study of Tupaia belangeri with 15 samples.

Results

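The cell adhesion molecules CADM1, CADM2, CADM3 and CADM4 and the nectins NECTIN1, NECTIN2 and NECTIN3 were followed in single-nucleus RNA libraries of the retina of the tree shrew (TS, Tupaia belangeri). The 7 genes were taken by name from the 83605 features of the deposited matrices. Each was listed once, with no numbered copy. Each of the 15 libraries came from the retina of a different healthy animal, 5 in infancy, 5 mature and 5 senile, and no treatment or genetic change was given for any group. Infant and mature animals came from the same animal centre and senile animals from another institute, so stage and source cannot be told apart in any comparison with the senile stage. Nuclei were taken from frozen retina, and reads were counted as unique molecular identifiers (UMIs) per gene and nucleus.

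CADMs, also called SynCAMs or nectin-like molecules, and nectins are membrane proteins of the immunoglobulin superfamily. They hold neighbouring membranes together by binding across the gap to their own kind or to a relative, without the need for calcium that cadherins have. CADMs are best known from synapses and from contacts between axons and glia, and their short tails bind scaffold proteins of the 4.1 and MAGUK families. Nectins sit at adherens junctions, where their tails bind afadin. In the eye, NECTIN1 and NECTIN3 are known from the apical contacts of the ciliary epithelium, and adherens junctions also join Müller cells to photoreceptors at the outer limiting membrane. The comparisons below ask where in the retina each gene is transcribed, how sister cell types differ, and whether the levels differ between stages.

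The libraries held between 13429873 and 58734300 UMIs in 4269 to 9856 barcodes. Of 119765 nuclei within the study's limits, 84767 (70.8%) could be assigned by marker genes to 1 of 9 classes: 14851 cones, 864 rods, 25319 bipolar cells (BCs), 1215 horizontal cells (HCs), 29816 amacrine cells (ACs), 4516 retinal ganglion cells (RGCs), 6491 Müller cells, 1057 astrocytes and 638 microglia. No member took part in the assignment. Each class name rests on its marker list, although PDE6G and CNGA1 in the rod list, GNGT2, CNGB3 and CNGA3 in the cone list, CABP5 in the BC list, GAD2 and SLC32A1 in the AC list and POU4F2 in the RGC list were among the markers with 0 UMIs in all libraries. Senile 1 had no rods and Mature 4 had 9 astrocytes, so these classes were compared over 14 retinas. Markers of other cells were found in every library, with pigment epithelium markers (5 of 5 genes) at 89.0 to 240 counts-per-million units (CPM), vessel markers (6 of 6) at 52.1 to 83.3 CPM and oligodendrocyte markers (4 of 5, MOBP at 0) at 5.81 to 10.1 CPM. Mature 4 stood apart for NECTIN3, as given with that gene. Senile 3 stood apart in its nuclei, of which 45.4% fell in a class and 47.2% resembled a mixture of 2 classes, against 60.0% to 83.8% and 11.0% to 27.4% in the other libraries. Without Senile 3 the counts between classes and between sister types given below were 190 in place of 194 and 24 in place of 25. For each class and retina the UMIs of its nuclei were added up, and levels are given as CPM of the sum. They are not corrected for transcript length, so they are compared between classes and not between genes, and fewer transcripts per nucleus cannot be told apart from fewer nuclei of a subtype that holds them.

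All 7 genes differed between classes. Over the 36 pairs of classes and 7 genes, 194 of 252 differences of log2(CPM + 1) within retinas passed an adjusted p of 0.05 (2-sided exact sign-flip permutation test over retinas, Benjamini-Hochberg adjusted over the 252). Among the 10616 features expressed at least as strongly as the weakest of the 7, 58.1% of all pairs lay at or under the same unadjusted p. The share for the members was 77.0%. By gene, the number of pairs that passed was 33 of 36 for CADM1, 34 for CADM2, 29 for CADM3, 24 for CADM4, 29 for NECTIN1, 23 for NECTIN2 and 22 for NECTIN3.

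**Figure D1:**
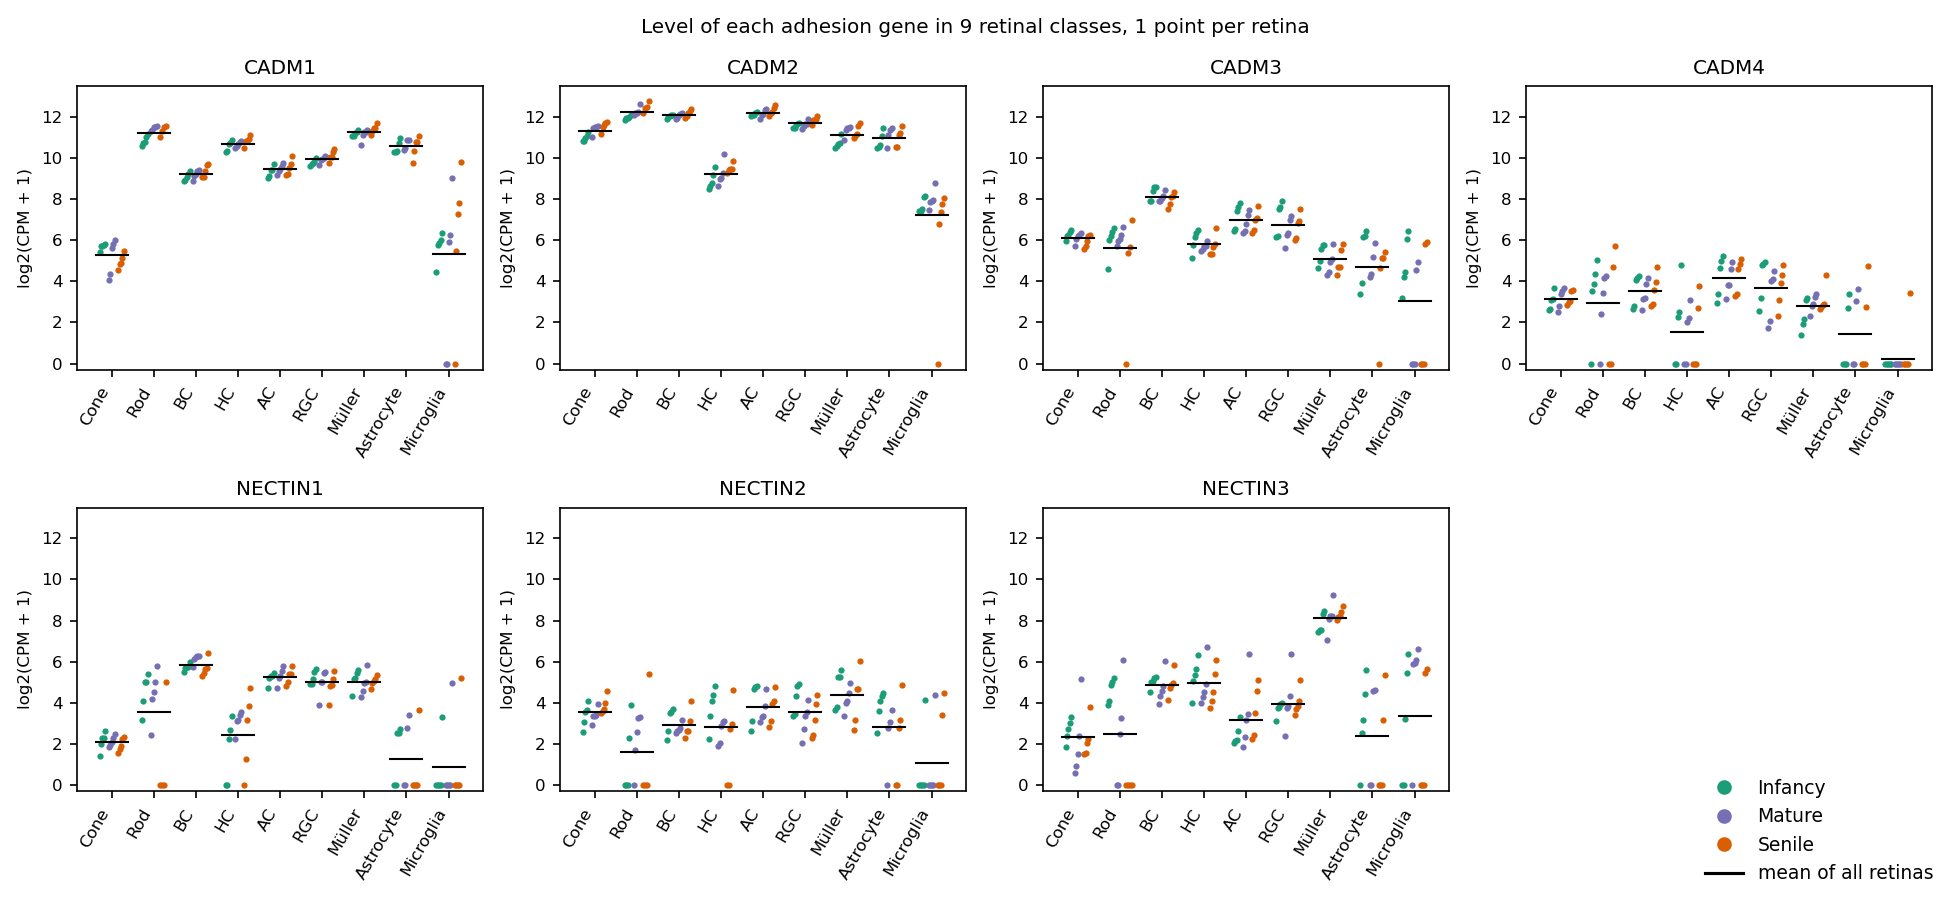
Level of each gene as log2(CPM + 1), with 1 point per retina coloured by stage and classes on the x axis, the black bar being the mean of the plotted values. CADM1 lies lowest in cones and microglia, CADM3 and NECTIN1 highest in BCs, and NECTIN3 highest in Müller cells.

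CADM1 (TSDBGID.5034, 328035 UMIs in all), the founding member of the SynCAMs and an organizer of synapses, was high in Müller cells and rods and low in cones. In Müller cells it lay between 1566 and 3272 CPM with a median of 2476 (mean 2448 ± 392, SD, n = 15 retinas). In rods it lay between 1547 and 3018 CPM with a median of 2530 (2419 ± 512, n = 14). The levels of these 2 classes overlapped, and their difference of 0.02 on the log2 scale did not pass (exact sign-flip permutation test, adjusted p = 0.889). HCs at 1677 ± 259 CPM and astrocytes at 1552 ± 355 CPM followed and were likewise not told apart (adjusted p = 0.22 from the same exact permutation test). RGCs held 991 ± 170 CPM, ACs 711 ± 150 and BCs 604 ± 108, and every step from astrocytes down to BCs passed. Cones held only 15.99 to 62.4 CPM (40.7 ± 14.9, from 2416 UMIs). Microglia averaged 150 ± 245 CPM with a median of 59.1 (mean 96.7 without Senile 4), and their 148 UMIs came from 10 to 66 nuclei per retina. In 3 retinas microglia had no CADM1 UMI, which allows up to 73.5 to 109 CPM (3 counts per sum, counting error only).

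CADM2 (TSDBGID.4374, 1790559 UMIs), a synaptic CADM of the nervous system, was found in all classes of neurons but was low in HCs. It reached 3689 to 6924 CPM in rods with a median of 4645 (4837 ± 949), 4730 ± 583 CPM in ACs and 4354 ± 454 in BCs. Rods and ACs did not differ beyond their spread (0.03 on the log2 scale, exact sign-flip permutation test, adjusted p = 0.54), while without the infant retinas rods were higher by 0.14, which passed. RGCs held 3323 ± 438 CPM and cones 2605 ± 534, where the lowest cone value was 1794 and the highest 3407. Müller cells (2299 ± 604) and astrocytes (2086 ± 591) were again not told apart (adjusted p = 0.14, exact permutation test). In HCs the level was 355 to 1174 CPM with a median of 613, and the step of 1.83 on the log2 scale from astrocytes down to HCs passed (exact permutation test, adjusted p = 0.00025). Microglia were lowest, with 210 ± 96.0 CPM from 221 UMIs.

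CADM3 (TSDBGID.25463, 63968 UMIs), also called nectin-like molecule 1 and known from axons and synapses, led in BCs. Its BC level ran from 184 to 384 CPM with a median of 274 (282 ± 60.4), against 80.5 to 221 CPM with a median of 125 in ACs (134 ± 49.4). The difference within retinas was 1.13 ± 0.28 on the log2 scale (SD over 15 retinas, exact sign-flip permutation test, adjusted p = 0.000205). RGCs held 119 ± 58.7 CPM, cones 68.9 ± 12.3, rods 64.7 ± 31.7 and HCs 57.2 ± 18.6, and the steps from cones to rods and from rods to HCs did not pass. Astrocytes (36.8 ± 25.9 CPM), Müller cells (35.7 ± 14.2) and microglia (24.3 ± 28.6) were lowest.

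CADM4 (TSDBGID.18712, 5817 UMIs), known from glia that wrap axons in the peripheral nerve, was sparse in every class. It averaged 19.7 ± 10.3 CPM in ACs, with a range from 6.82 to 36.5 and a median of 23.4, and 15.2 ± 9.83 in RGCs. The difference of 0.50 on the log2 scale between these 2 classes passed (exact sign-flip permutation test, adjusted p = 0.0030). It was 0.18 and no longer passed with classes taken from clusters, nor did it pass within the libraries of either software version. Rods held 14.4 ± 14.7 CPM from 28 UMIs, BCs 11.7 ± 5.98, cones 8.14 ± 2.50 and Müller cells 6.66 ± 3.90. Of the 14 retinas with astrocytes, 8 had no CADM4 UMI there, and microglia had 1 UMI in all.

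NECTIN1 (TSDBGID.4972, 15883 UMIs), a nectin that binds NECTIN3 across the junction, was highest in BCs and low in cones. The BC level ran from 38.6 to 83.5 CPM with a median of 52.6 (58.3 ± 14.2), above ACs (38.4 ± 9.002) by 0.59 on the log2 scale (exact sign-flip permutation test, adjusted p = 0.00036), although the difference was 0.30 and did not pass within the libraries of Cell Ranger version 5.0.1. RGCs (33.4 ± 10.7) and Müller cells (33.2 ± 10.1) did not differ beyond their spread. Rods averaged 20.7 ± 17.1 CPM from 55 UMIs and HCs 7.07 ± 6.57. Cones held 1.63 to 5.25 CPM in all 15 retinas with a median of 3.34. Astrocytes had 9 UMIs and microglia 3.

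NECTIN2 (TSDBGID.1016, 5168 UMIs), a widely expressed nectin, was low throughout and highest in Müller cells. Müller cells held 5.39 to 64.7 CPM with a median of 21.4 (24.4 ± 16.5), and ACs 15.0 ± 8.51, a difference of 0.58 on the log2 scale that passed (exact sign-flip permutation test, adjusted p = 0.000557). RGCs (12.7 ± 8.13), cones (11.4 ± 4.35), astrocytes (9.90 ± 8.54), HCs (9.29 ± 8.45) and BCs (7.27 ± 3.52) followed with no step between neighbours that passed. Rods had 9 UMIs and microglia 5.

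NECTIN3 (TSDBGID.4291, 27395 UMIs), the partner of NECTIN1 at heterotypic junctions, was highest in Müller cells. Müller cells held 133 to 601 CPM with a median of 293 (295 ± 114), and the next class, HCs, 12.6 to 104 CPM with a median of 29.1 (37.5 ± 27.0). The Müller level exceeded that of HCs by 3.14 ± 0.81 on the log2 scale (SD, exact sign-flip permutation test, adjusted p = 0.000205), and by 3.18 without Mature 4. All 8 pairs that include Müller cells passed. BCs held 30.9 ± 13.7 CPM, RGCs 18.5 ± 18.5, rods 14.5 ± 19.5, ACs 13.7 ± 20.5 (mean 8.88 without Mature 4), astrocytes 0 to 47.4 and cones 6.31 ± 8.65. Microglia averaged 33.8 ± 34.5 CPM from 35 UMIs and could not be ordered against HCs or BCs.

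Part of the NECTIN3 RNA lay outside the 9 classes. In Mature 4 the gene had 11024 UMIs, where the other libraries had 213 to 2954. Of these, 7952 came from 3792 nuclei outside the classes, at 520 CPM there against 131 CPM in all nuclei with a class and 601 CPM in Müller cells. In the other libraries nuclei outside the classes held 16.3 to 136 CPM. Among the clusters of Mature 4 that could not be named were those led by IDO1, GPC5 and MYO3A (215 nuclei, NECTIN3 at 1760 CPM) and by SLC22A8, ENPP2 and SLC13A4 (825 nuclei, 894 CPM). Clusters that shared the leading genes ENPP2 and SLC26A4 occurred among others in Senile 4 (288 nuclei, 1027 CPM) and Senile 5 (135 nuclei, 927 CPM). In these 4 clusters, in that order, 2.33%, 12.97%, 20.5% and 20.7% of nuclei had been assigned to a class. Clusters led by MECOM, ABI3BP, SLC2A12 and SLC26A4 were also found in Infancy 4 (666 CPM), Infancy 5 (779), Mature 3 (713), Mature 5 (868) and Senile 3 (680, and 78.6 in another such cluster), so leaving out the 3 libraries does not remove such nuclei. Their part in the NECTIN3 level of each class was not tested.

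**Figure D2:**
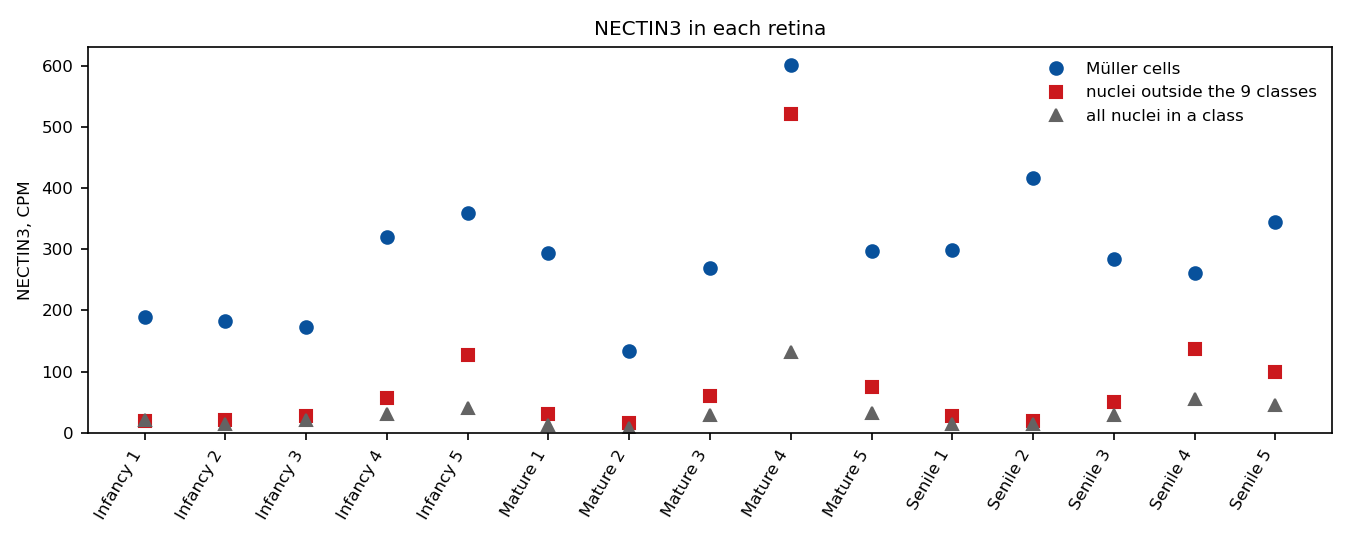
NECTIN3 in CPM (y axis) in each retina (x axis), for Müller cells, for all nuclei assigned to a class and for nuclei outside the 9 classes. Müller cells are above the mean of classed nuclei in every retina, and Mature 4 is the retina where nuclei outside the classes reach a comparable level (520 CPM).

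Sister types were then compared within retinas by edgeR's quasi-likelihood test with the retina as a block and adjustment over all features tested. Of 33 tests of the 7 genes in 5 pairs of types, 25 passed an adjusted p of 0.05. The subclasses rest on few markers (OPN1LW for L-cones; OPN1SW, VAV3 and PLXDC2 for S-cones; ISL1, TRPM1 and GRM6 for ON BCs; GRIK1 for OFF BCs; markers that include GAD1 for GABAergic ACs, and SLC6A9 for glycinergic ACs).

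Between the photoreceptors, CADM1 set rods apart from cones more than any other member. All rod sums (1547 to 3018 CPM) lay above all cone sums (15.99 to 62.4 CPM), and the log2 fold change was 5.59 ± 0.14 (SE, n = 14 retinas, edgeR adjusted p = 8.9e-41). In this pair 6 of 7 members passed, where 39.0% of all 12931 features did. CADM2 was higher in rods by 0.61 ± 0.07 in 14 of 14 retinas (adjusted p = 1.0e-10, edgeR), with rods at 3689 to 6924 CPM and cones at 1794 to 3407 CPM and no overlap. NECTIN1 was higher by 2.45 ± 0.33 in 11 of 14 retinas, on 55 rod UMIs, and NECTIN3 by 1.13 ± 0.34 in 8 of 14. In the exact sign-flip permutation test, which gives each retina the same weight, NECTIN3 did not pass (cones minus rods -0.09 ± 2.10, SD, adjusted p = 0.889). NECTIN2 was lower in rods by a log2 change of -1.49 ± 0.44 (12 of 14 retinas) on 9 rod UMIs, and CADM3 by -0.49 ± 0.17 although only 7 of 14 retinas were lower and neither DESeq2 (-0.35) nor the exact sign-flip permutation test (cones minus rods 0.53 ± 1.60, SD, adjusted p = 0.292) called it. CADM4 gave 0.41 ± 0.35 and did not pass (adjusted p = 0.375, edgeR). The edgeR values come from sums rescaled between types, so they need not equal differences of the CPM levels. For CADM2 the mean difference of log2(CPM + 1) was -0.92 (cones minus rods), against 0.61 (rods minus cones) by edgeR. Rod sums held the 10 cone markers at 210 to 896 CPM against 7689 to 11775 CPM in cones, and cone sums held the 11 rod markers at 268 to 571 CPM against 7840 to 13228 CPM in rods; their part in these differences was not tested.

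Among cones, 579 S-cones were compared with 10078 L-cones over 13 retinas. CADM1 was higher in S-cones, with a median of 43.8 CPM against 24.1 CPM in L-cones of the same retinas and a log2 fold change of 1.01 ± 0.20 (10 of 13 retinas, edgeR adjusted p = 3.8e-05). DESeq2 gave 0.91, which did not pass. The highest levels were those of infancy. The 4 infant retinas with enough S-cones held 133, 142, 179 and 289 CPM, on 11 to 44 UMIs each. The other 9 retinas, mature and senile together, held 0 to 52.8 CPM on 0 to 14 UMIs each. The value of 0 was that of Senile 1, where 3 counts would have been 14.8 CPM. L-cones of the 5 infant retinas lay at 24.1 to 48.3 CPM and overlapped with the later stages. Stage was not tested within S-cones, whose sums hold 23 to 81 nuclei. The nuclei gated as S-cones held the 11 rod markers at a mean of 3123 CPM, against 231 CPM in L-cones and 9906 CPM in rods, where CADM1 is high. Most of this sum was SAG, arrestin, which the study lists for S-cones as well as for rods. SAG alone had a mean of 2946 CPM in S-cones. The other 10 rod markers held 129 to 226 CPM in S-cones (mean 177), against a mean of 164 CPM in L-cones and 4470 to 6621 CPM in rods. Müller markers had means of 115 CPM in S-cones and 121 CPM in L-cones. These marker values cover all stages together. The part of these markers in the CADM1 level of S-cones was not tested. CADM3 (0.46 ± 0.11, 12 of 13 retinas) and CADM2 (0.16 ± 0.05, 12 of 13) were also higher in S-cones, and NECTIN2 was lower (-1.07 ± 0.38, 11 of 13, adjusted p = 0.0409 by edgeR). These make 4 of 6 members tested, against 16.6% of all features. With no filter on low counts CADM2 was -0.08 and CADM3 0.20, neither passing, and NECTIN2 did not pass by DESeq2, nor without Senile 3 (-0.97, edgeR adjusted p = 0.0846). NECTIN3 (0.78 ± 0.47, or 1.29 without Mature 4) and CADM4 (0.13 ± 0.34) did not pass, and NECTIN1 was too low to test.

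In BCs all 7 members differed between ON and OFF types, where 41.1% of all features did. CADM1 was lower in ON BCs in 15 of 15 retinas, at a median of 436 CPM (319 to 798) against 683 CPM (574 to 886) in OFF BCs, a log2 change of -0.78 ± 0.04 (edgeR adjusted p = 1.8e-15). The 8 Müller markers, in whose class CADM1 is high, had a mean of 1175 CPM in OFF and 254 CPM in ON BCs, and their part in this difference was not tested. CADM3 (-0.35 ± 0.05, 14 of 15 retinas), CADM4 (-0.47 ± 0.15, 12 of 15), NECTIN2 (-0.73 ± 0.17, 13 of 15) and CADM2 (-0.15 ± 0.03, 10 of 15) were lower in ON BCs as well. NECTIN1 and NECTIN3, which bind each other across a junction, went the other way. NECTIN1 was higher in ON BCs by 0.36 ± 0.05 in 14 of 15 retinas (medians 60.8 and 46.2 CPM, edgeR adjusted p = 1.5e-06). NECTIN3 was higher by 0.51 ± 0.10 in 12 of 15 (medians 40.2 and 25.9 CPM, edgeR adjusted p = 0.000121).

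In ACs 4 of 7 members passed, with 39.0% of all features. The comparison held 4411 glycinergic and 2608 GABAergic nuclei of the 29816 ACs, and the other ACs took no part in it. CADM1 was lower in glycinergic than in GABAergic ACs in 15 of 15 retinas, at a median of 460 CPM (352 to 790) against 910 CPM (676 to 1870), a log2 change of -1.05 ± 0.06 (edgeR adjusted p = 7.4e-15). The 8 astrocyte markers, in whose class CADM1 is high, had a mean of 635 CPM in GABAergic and 404 CPM in glycinergic ACs, and the Müller markers 467 and 484 CPM. Their part in this difference was not tested. CADM2 was higher in glycinergic ACs in 15 of 15 retinas (medians 5350 and 4571 CPM, 0.23 ± 0.05), and CADM3 in 13 of 15 (medians 153 and 82.7 CPM, 0.51 ± 0.08). NECTIN3 gave 1.48 ± 0.33 (edgeR adjusted p = 0.000403), but this rested on 3 libraries. Glycinergic ACs held 198 CPM in Mature 4, 111 CPM in Senile 5 and 78.6 CPM in Senile 4, and 1.26 to 21.3 CPM in the other retinas. Without Mature 4 alone the value was 0.95 and passed. Without the 3 libraries it was 0.19 and did not pass, and with classes taken from clusters it was -0.68 and passed in the other direction. With the stricter gate CADM2 kept its value of 0.23 but did not pass. NECTIN1 (-0.15 ± 0.11), CADM4 (0.14 ± 0.14) and NECTIN2 (-0.04 ± 0.15) did not pass.

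Among glia, astrocytes held less of the nectins and of CADM1 than Müller cells. NECTIN3 was 0 to 47.4 CPM in astrocytes and 133 to 416 CPM in Müller cells of the same 14 retinas, a log2 change of -4.07 ± 0.21 (edgeR adjusted p = 5.4e-18). NECTIN1 was 0 to 11.5 CPM against 18.7 to 55.7 CPM (-3.11 ± 0.35, adjusted p = 1.9e-09 by edgeR), and CADM1 was 854 to 2110 CPM against 2114 to 3272 CPM (-0.74 ± 0.10). In these 14 retinas no astrocyte value of the 3 genes reached a Müller value, for CADM1 only by 2110 against 2114 CPM. With Mature 4 counted, the lowest Müller value of CADM1 was 1566 CPM, below the highest astrocyte value. Overlap is given as a description, with no share of all features beside it. NECTIN2 was lower in 12 of 14 retinas (-1.05 ± 0.29). These are 4 of 6 members tested, against 45.8% of all features. CADM2 (-0.15 ± 0.09) and CADM3 (-0.06 ± 0.22) did not pass, and CADM4 was too low to test. Astrocyte sums held the 8 Müller markers at 1526 to 2271 CPM, where Müller cells held 5276 to 11816 CPM.

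**Figure D3:**
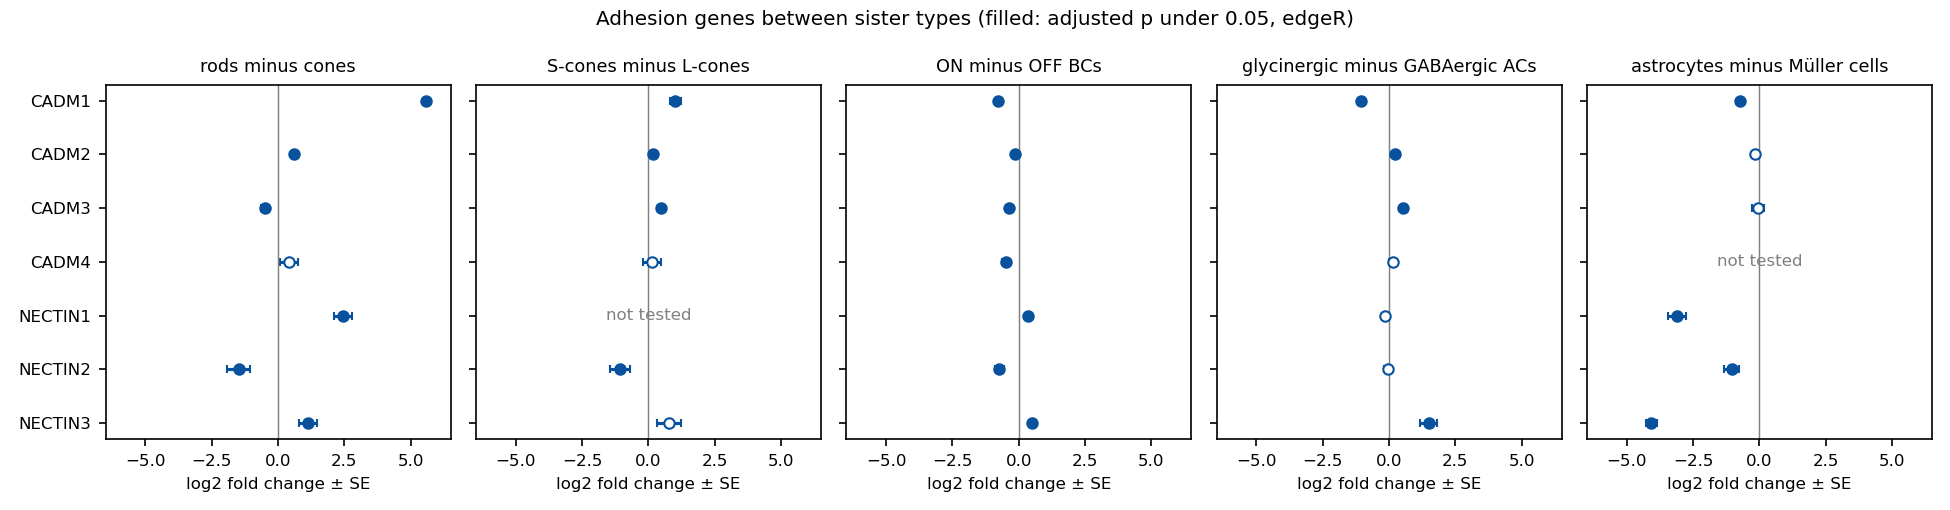
Log2 fold change with its SE (x axis) of each gene (y axis) in 5 pairs of sister types from edgeR, filled where the adjusted p was under 0.05. CADM1 in rods against cones (5.59) and NECTIN3 in astrocytes against Müller cells (-4.07) lie farthest from 0.

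No member passed in any comparison of stages. Summed counts of a class were fitted for all 3 stages with the Cell Ranger version of the labels, which occurs with both values in every stage. Of the 63 combinations of gene and class, 43 had enough counts to test. Of these, 0 passed for senile against infancy (all features and classes 1.52%), 0 for mature against infancy (0.962%) and 0 for senile against mature (0.0142%) by edgeR. At an unadjusted p under 0.05, 9, 7 and 1 of the 43 lay, that is 20.9%, 16.3% and 2.33%, where all features gave 9.40%, 11.4% and 9.22%. DESeq2 called 3 of the 129 values, where 1.58% of all features and contrasts were called by it. On simulated counts the same fit found 18.0% to 38.5% of 2-fold changes and 77.5% to 95.9% of 4-fold changes, depending on the class. These shares cover features of all levels with the same dispersion, so they do not give the sensitivity for a single member. The SE of the members' log2 changes ran from 0.10 (CADM2 in BCs, senile minus mature) to 0.83 (NECTIN3 in cones, senile minus infancy). The size of change that could be missed therefore differed between members and classes.

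In cones, where 2.22% of features passed for senile and 1.51% for mature against infancy, CADM1 came nearest to the threshold. The infant retinas held 54.0, 42.1, 54.7, 51.0 and 51.7 CPM, the mature ones 19.6, 15.99, 54.7, 48.5 and 62.4 CPM, and the senile ones 22.7, 27.6, 33.8, 44.2 and 28.3 CPM. All 5 senile values were below the infant mean, and Senile 4 overlapped with Infancy 2. The senile minus infancy change was -0.95 ± 0.25 on the log2 scale (SE, edgeR adjusted p = 0.0646). Mature 1 and Mature 2, both of the earlier software version, were low and the other 3 mature retinas were at infant levels, so that mature minus infancy was -1.45 among libraries of version 5.0.1 and 0.09 among those of version 7.0.1. The senile change was -0.97 and -0.55 in the 2 sets of libraries. Without Mature 2 it was -0.91 (edgeR adjusted p = 0.0485). With simulated doublets removed it was -1.47 (edgeR adjusted p = 0.0081), and with classes from clusters -2.13 (adjusted p = 0.0100, edgeR). DESeq2 also called it (-0.96, adjusted p = 0.00944), as did edgeR with no filter on low counts (-0.95, adjusted p = 0.000479). BC markers in the cone sums had means of 154, 184 and 93.4 CPM and Müller markers 148, 117 and 130 CPM in infant, mature and senile retinas, and their part in the change was not tested.

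CADM2 in cones went the other way. It was 2182, 1840, 2037, 1794 and 2496 CPM in infancy, 2815, 2065, 2910, 3009 and 2905 CPM in the mature stage and 3067, 3306, 2293, 3407 and 2948 CPM in senile retinas. Of the later retinas, Mature 2 and Senile 3 lay within the infant range. Senile minus infancy was 0.46 ± 0.13 (edgeR adjusted p = 0.0976), or 0.54 without Senile 3 (adjusted p = 0.0115 by edgeR), the only library of which the removal moved this value past the threshold. With no filter on low counts both the senile (0.45, adjusted p = 0.000564) and the mature change (0.41, adjusted p = 0.00462) passed by edgeR. Among the unnamed clusters of Senile 3 were 3 of 601, 556 and 370 nuclei, with leading genes such as RPS14 and RPS25 of the ribosome, that held CADM2 at 1526, 1461 and 1635 CPM. In these 3 clusters, in that order, 0.333%, 2.34% and 11.9% of nuclei had been assigned to any class. The part of these clusters in the cone level was not tested. In L-cones pigment epithelium markers had means of 44.9, 66.4 and 66.5 CPM in infant, mature and senile retinas. AC markers had 480, 528 and 505 CPM and BC markers 156, 179 and 88.6 CPM in the same order. The part of these markers in the CADM2 change was not tested. NECTIN2 (0.59 ± 0.22) and CADM3 (-0.40 ± 0.16) had unadjusted p-values under 0.05 in the same class and adjusted values of 0.287 and 0.319 (edgeR).

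In rods, with 19 to 113 nuclei per retina, no comparison of these genes with infancy passed by edgeR. Whether the values of 2 stages overlap is given as a description only, with no share of all features beside it. CADM1 was 1715, 1741, 1547, 2083 and 2335 CPM in infancy, 2968, 2936, 2527, 2653 and 2903 CPM in mature retinas and 2533, 2043, 2859 and 3018 CPM in Senile 2 to Senile 5. Mature and infant rods did not overlap, and the mature minus infancy change was 0.51 ± 0.14 (edgeR adjusted p = 0.127), where 0.497% of features passed in rods. Senile and infant rods overlapped, with a change of 0.35 ± 0.16 (edgeR adjusted p = 0.455). CADM2 was 3919, 3689, 3937, 4067 and 4399 CPM in infancy, 4700, 4598, 6227, 4389 and 4881 CPM in mature and 5502, 4692, 6924 and 5798 CPM in senile rods. Senile and infant rods did not overlap, and the change of 0.38 ± 0.14 had an adjusted p of 0.241 (edgeR), with 1.19% of features passing. Mature 4 lay below Infancy 5, and mature minus infancy was 0.24 ± 0.13 (edgeR adjusted p = 0.559). DESeq2 put CADM1 in mature (0.49, adjusted p = 0.0246) and CADM2 in senile rods (0.42, adjusted p = 0.0448) past the threshold. Cone markers in the rod sums had means of 357, 378 and 510 CPM in infant, mature and senile retinas, and their part in these changes was not tested.

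In Müller cells CADM2 was 1533, 1646, 1436, 1669 and 2303 CPM in infancy, 2950, 1890, 2597, 2775 and 2854 CPM in mature and 1999, 2167, 2312, 3379 and 2978 CPM in senile retinas. Infancy 5 was the only infant value within the later ranges. The changes were 0.50 ± 0.15 for mature (edgeR adjusted p = 0.138, 0.973% of features passing) and 0.43 ± 0.15 for senile against infancy (edgeR adjusted p = 0.2595, 1.35% of features passing). The mature change passed by edgeR with no filter on low counts (0.51, adjusted p = 0.00701) and with sex in place of the version (0.56, adjusted p = 0.0494). That sex is the one the study lists and is not in the labels. Earlier results of these data found Y-linked RNA against it in most retinas, so this fit is an alternative only. Cone markers in the Müller sums had means of 149, 182 and 310 CPM in infant, mature and senile retinas, and their part was not tested. CADM1 in Müller cells did not move by as much, with 0.16 for senile against infancy. NECTIN3 in Müller cells was 188, 183, 174, 320 and 358 CPM in infancy, 293, 133, 269, 601 and 296 CPM in mature and 299, 416, 284, 261 and 344 CPM in senile retinas, with wide overlap and a senile change of 0.26 ± 0.27.

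**Figure D4:**
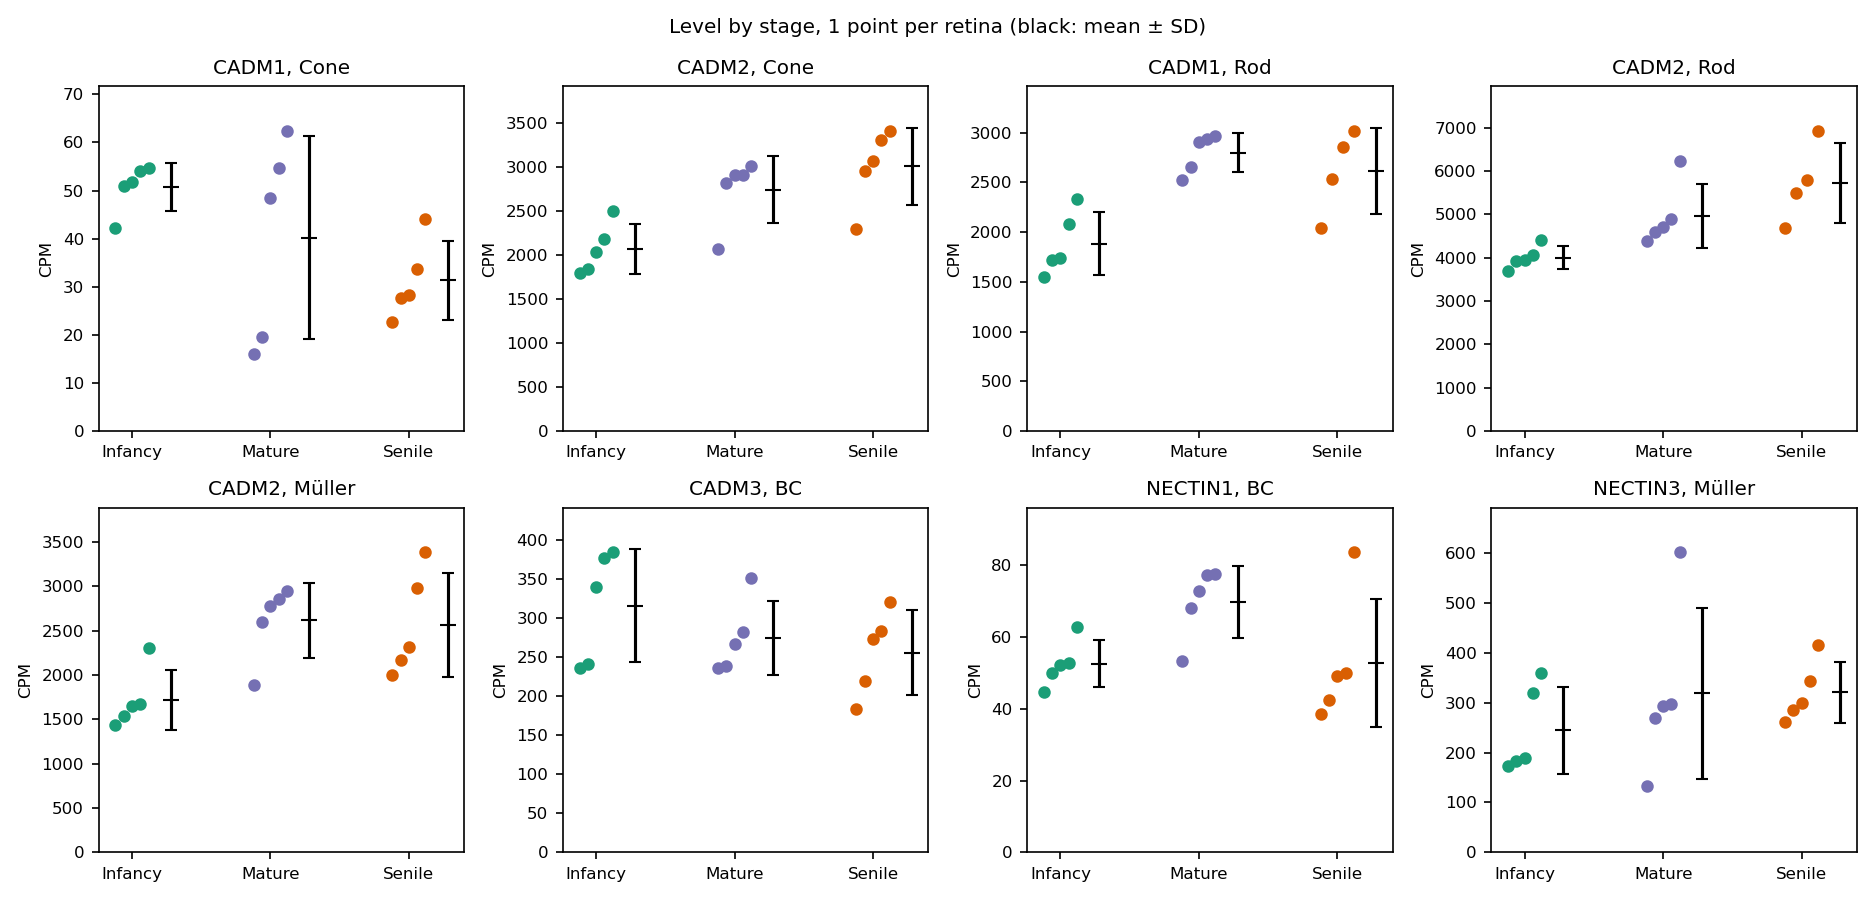
Level in CPM (y axis, from 0) by stage (x axis) for 8 combinations of gene and class, with 1 point per retina and the mean ± SD in black. CADM1 in cones is lower in senile retinas and the mean of CADM2 in cones, rods and Müller cells lies higher after infancy with overlap except in senile rods, and none of these passed the adjusted p by edgeR.

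In BCs, the class where CADM3 and NECTIN1 are highest, CADM3 was 378, 340, 384, 236 and 241 CPM in infancy, 283, 352, 267, 239 and 236 CPM in mature and 284, 320, 274, 184 and 219 CPM in senile retinas. Its senile change was -0.27 ± 0.10 (edgeR adjusted p = 0.341, 1.58% of features passing). Within every stage the first retinas, of the earlier software version, lay higher: infant retinas 1 to 3 held 340 to 384 CPM and retinas 4 and 5 held 236 and 241 CPM. Cone markers (10 genes) in BC sums had means of 145, 183 and 298 CPM in infant, mature and senile retinas, and their part in the BC changes was not tested. NECTIN1 in BCs was 52.3, 50.1, 52.6, 44.7 and 62.8 CPM in infancy, 77.2, 68.0, 77.4, 53.2 and 72.8 CPM in mature and 42.5, 38.6, 83.5, 49.05 and 49.9 CPM in senile retinas. The mature level was above infancy by 0.37 ± 0.17 (edgeR adjusted p = 0.368, 1.09% of features passing) and the change from mature to senile was -0.46 ± 0.17 (edgeR adjusted p = 0.355, 0.0189% of features passing), although Senile 3 was the highest of all 15. NECTIN2 in RGCs gave -0.89 ± 0.34 for mature and -0.82 ± 0.34 for senile against infancy (-0.44 without Senile 1), with adjusted p-values of 0.409 and 0.545 (edgeR), where 0.712% and 1.21% of features passed, and as few as 1 UMI in a retina. CADM3 in RGCs gave -0.48 ± 0.20 for mature against infancy (edgeR adjusted p = 0.470), with 48.7 to 144 CPM in mature and 69.1 to 242 CPM in infant retinas and 5 of 5 mature values below the infant mean. Within versions 5.0.1 and 7.0.1 it was -0.59 and -0.08.

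**Figure D5:**
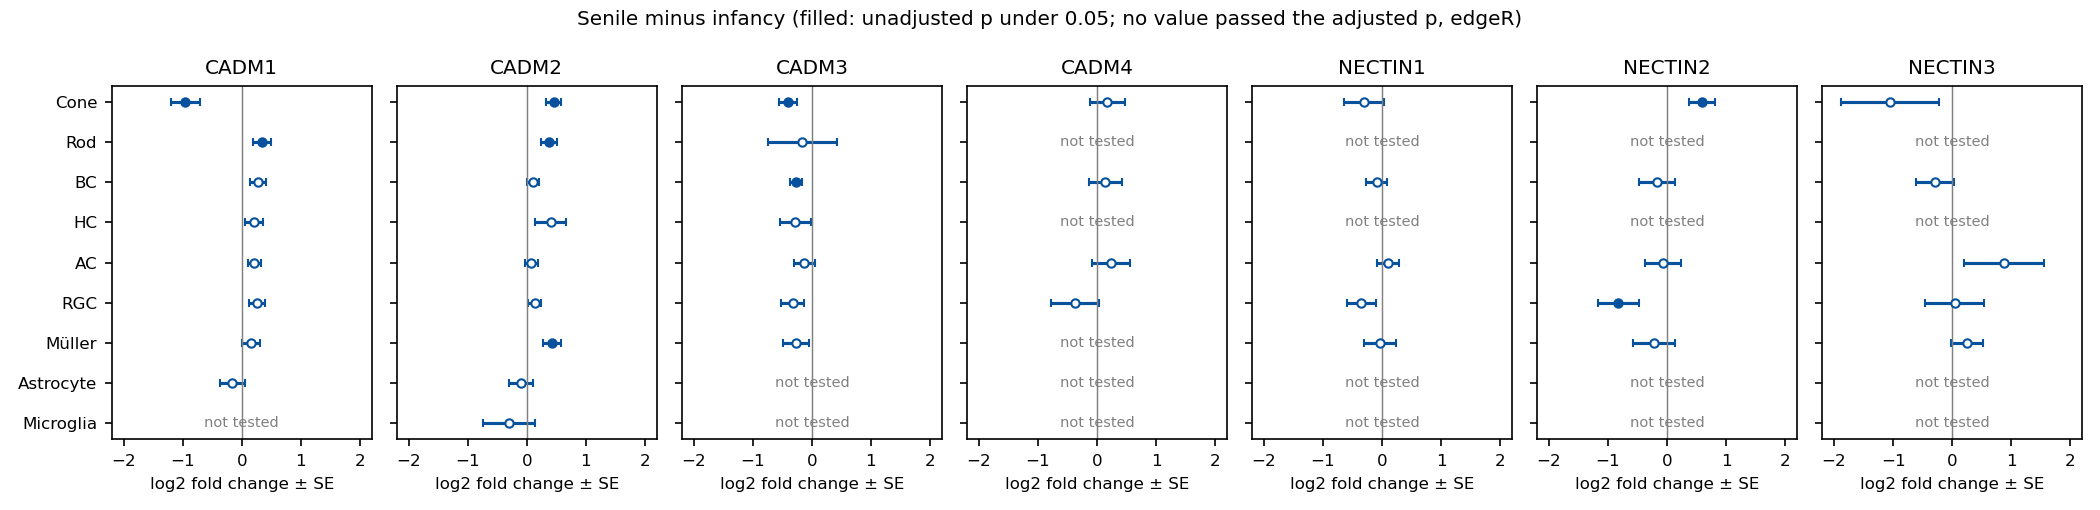
Senile minus infancy log2 fold change with its SE (x axis) from edgeR for each gene (panels) in each class (y axis), filled where the unadjusted p was under 0.05. The values run from -1.05 to 0.88, all classes share the same retinas, and none passed the adjusted p.

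Whether the stage change of a gene differed between 2 classes was tested directly on the difference of log2 levels within retinas. Of 363 such exact permutation tests, 48 (13.2%) had an unadjusted p under 0.05, where 6.73% of the same tests over all features did, and 0 passed after adjustment, the lowest adjusted p being 0.152. The smallest p found was 0.00794, which is the lowest that 5 against 5 or 4 against 5 retinas allow. At that p, 58 tests would have been needed for any to pass and 19 reached it, so that the count of 0 says little. CADM1 in cones against rods was among them, with a difference of -1.08 for senile against infancy and -1.10 for mature against infancy (exact permutation p = 0.00794, adjusted p = 0.152 for each). The Cell Ranger version also went with the level of several members in whole libraries. NECTIN3 held 11.2 to 23.1 CPM in the 7 libraries of version 5.0.1 and 38.5 to 287 CPM in the 8 of version 7.0.1, with no overlap. The unnamed clusters rich in NECTIN3 described above came from these 8 libraries, and no unnamed cluster of a 5.0.1 library held more than 173 CPM, so the version and these nuclei cannot be told apart. CADM3 (133 to 217 against 91.2 to 141 CPM), CADM4 (14.3 to 23.8 against 6.22 to 19.8) and NECTIN2 (11.1 to 22.7 against 5.63 to 15.7) lay lower in version 7.0.1 with partial overlap.

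The partners of these molecules were followed by a list of 34 genes, of which 31 were in the files (CD226, LIN7B and PVR were not matched, PALS2 was matched as MPP6, and SDCBP, at 0 UMIs, was taken as its copy SDCBPli1). Of 543 tests of stage in the 9 classes, 0 passed by edgeR, where 0.831% of all features and contrasts did, and 55 lay under an unadjusted p of 0.05. DESeq2 called 3 of the 543, a smaller share than its 1.58% of all features and contrasts. The 55 are 10.1% of the tests, a share near the 9.22% to 11.4% of all features. The lowest adjusted p was 0.0823, for PATJ, a scaffold of the apical polarity complex, in RGCs of mature against infant retinas (0.47 ± 0.12 on the log2 scale, edgeR), which DESeq2 called (0.46 ± 0.11, adjusted p = 0.00443). TJP1, the tight junction scaffold ZO-1, gave the other DESeq2 calls, in cones of senile against mature retinas (-0.42 ± 0.11, adjusted p = 0.0350) and in ACs of mature against infant retinas (0.31 ± 0.09, adjusted p = 0.0343).

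Between sister types the partners did differ. In rods against cones, 6 partners were higher and 7 lower of 25 tested. EPB41L2, a 4.1 protein of the family that binds the tail of CADM1, was higher in rods by 5.33 ± 0.13, its relative EPB41L1 was lower (-2.73 ± 0.39), and so was the afadin-binding SSX2IP (-1.68 ± 0.14) (edgeR). In S-cones against L-cones, 3 were higher and 6 lower of 26, led by CTNNA2, the neural alpha-catenin (4.21 ± 0.09), FARP1, a CADM1 partner at synapses (-1.52 ± 0.10), and CTNND1, p120-catenin (-0.99 ± 0.12). In ON against OFF BCs, 7 were higher and 9 lower of 27, with the multi-PDZ scaffold MPDZ (-3.04 ± 0.12), N-cadherin CDH2 (-1.70 ± 0.06) and the MAGUK protein MPP3 (-1.62 ± 0.12) changed most. In glycinergic against GABAergic ACs, 9 were higher and 8 lower of 26, with FARP1 at 1.89 ± 0.09, MPDZ at -1.45 ± 0.08 and MPP6 at -1.14 ± 0.10. In astrocytes against Müller cells, 5 were higher and 10 lower of 24, with the scaffold LIN7A at -4.44 ± 0.18, MPP6 at 3.28 ± 0.20 and the 4.1 protein EPB41L3 at 2.96 ± 0.11. The share of partners called was 52.0%, 34.6%, 59.3%, 65.4% and 62.5% in these 5 pairs, against 39.0%, 16.6%, 41.1%, 39.0% and 45.8% of all features, and the median change of the list lay between -0.21 and 0.05.

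Across the 133 sums of a class in a retina, genes with levels most similar to each member were described by Pearson's r of log2(CPM + 1) among 6774 single-copy genes. The sums share libraries and classes, so these values carry no test. For CADM1 they were SRGAP3 (0.86), TOX (0.82) and AUTS2 (0.81), and for CADM2 they included ERC2 (0.84), a protein of the presynaptic active zone, and MACROD2 (0.82). CADM3 was nearest to KCNMA1 (0.75), a calcium-activated potassium channel, IQSEC3 (0.73) and RUNX1T1 (0.71), and CADM4 to SLC39A3 (0.66), SLC16A7 (0.62) and SLC9A7 (0.62). NECTIN1 was nearest to MAGI3 (0.73), a junctional scaffold, MAP2 (0.72) and SGSM1 (0.72), NECTIN2 to TXNRD3 (0.59), PEBP4 (0.59) and FZD3 (0.58), and NECTIN3 to CLRN1 (0.73), ADAMTS12 (0.68) and SPHK1 (0.66).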

How the data were processed

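Single-nucleus libraries of 15 tree shrew retinas, 1 per animal, were analysed from the deposited feature-barcode matrices. The authors counted reads as UMIs per feature and nucleus with Cell Ranger against the tree shrew genome TS_3.0, and the deposited values are raw counts without normalization. The submitters' processing notes give version 5.0.1 for 7 libraries and 7.0.1 for 8, whereas the file headers give 6.1.2 for the same 7 and the study's methods name a single version for all libraries. The labels and the methods also name different versions of the library kit. What sets the 7 libraries apart besides the software is therefore not known, and the version term and the values within versions describe these 2 sets of libraries. Whether introns and strand were used in counting was not given in the sources used here. Libraries held 13429873 to 58734300 UMIs, with medians of 1461 to 5589 UMIs per nucleus. Between 4 and 30 barcodes were shared by any pair of libraries.

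Barcodes with over 200 and under 6000 genes and under 5% mitochondrial UMIs were kept (119765 of 120437). Nuclei were assigned to 9 classes from listed marker genes by a gate set after the data were seen, which left out 23153 nuclei resembling a mixture of 2 classes and 11845 others. Clusters made within each retina (Leiden) were named by the majority class of the gated nuclei they held. They gave the same class for 99.0% of 82026 nuclei named both ways. This agreement is partly built in, so it is no independent check of the classes. No doublet removal was applied beyond the mixture filter, and removing 7940 barcodes that resembled simulated doublets was an alternative.

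Counts were summed per retina and class (at least 10 nuclei) and tested with edgeR 4.0.16 (quasi-likelihood, TMM, filterByExpr) in R 4.3.3. The stage model held the stage and the software version, the model of sister types held the retina, and p-values were Benjamini-Hochberg adjusted over all features. Since 1 retina came from each animal, retinas are the replicates. Classes were compared by exact sign-flip permutation of log2(CPM + 1) differences, for which 6.1e-05 is the smallest p that 15 retinas allow. DESeq2 1.42.0, other filters, gates, pseudocounts, covariates and the omission of retinas were tried as alternatives, and comparing classes and sister types without Mature 4, Senile 3 or the 3 NECTIN3-rich libraries was chosen after seeing the data. The fit was tested on simulated counts with 200 changed features, with 2 to 7 false calls per class.

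The 7 members and the lists of markers and partners were chosen with earlier results of these data known. All members are named, with the 3 partners of largest change among those that passed in each pair of sister types and the 3 genes most similar in level to each member. A few items that these rules name are not reported here. No sequences are shown.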

Additional observations from a re-analysis of the deposited data

Results flagged for a closer look

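In 6 of 129 combinations of gene, class and stage with 4 or 5 retinas, 1 retina lay apart from the others by Dixon's criterion, where chance gives about 1 in 20 (6.45). CADM1 in cones was 42.1 CPM in Infancy 2 (140 UMIs) and 51.0 to 54.7 CPM in the other infant retinas. CADM2 was low in Mature 2, with 2065 CPM in cones (others 2815 to 3009) and 1890 CPM in Müller cells (others 2597 to 2950). CADM2 in microglia was 0 in Senile 3, in 17 nuclei, where 3 counts would have been 130 CPM and the others held 109 to 263 CPM. NECTIN3 in Infancy 2 was 22.2 CPM in BCs (others 31.8 to 36.6) and 7.77 CPM in RGCs (others 12.6 to 14.8).

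A signal outside the comparisons was NECTIN3 in the nuclei of Mature 4 that belong to no class, at 520 CPM, above the 16.3 to 136 CPM of such nuclei in the other libraries. The feature CADM1-AS-1, annotated antisense to CADM1, held 22845 UMIs, with mean levels of 170 CPM in Müller cells, 142 in rods, 120 in HCs and 2.73 in cones. Because the use of strand in counting was not given in the sources used here, its reads and those of CADM1 cannot be told apart.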

How the results depend on the processing

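The count of members called between stages, 0 by edgeR, was 3 with DESeq2 (1.58% of all features and contrasts called, against 0.831% by edgeR), 5 with no filter on low counts (0.912%), and 1 each with sex as the study lists it in place of the software version (0.766%), with classes from clusters (0.789%) and with simulated doublets removed (0.826%). The listed sex went against Y-linked RNA in most retinas, as given with CADM2 in Müller cells. The calls are named with their genes in the text, except NECTIN3 in ACs of mature against infant retinas with no filter (1.27, edgeR adjusted p = 0.000409). The mean of NECTIN3 over all AC sums was 13.7 CPM, or 8.88 CPM without Mature 4. The fit with no filter was not repeated without that library. Leaving out each retina in turn gave 0 to 1 calls, the calls being CADM1 in cones without Mature 2 and CADM2 in cones without Senile 3. Retinas with the same number come from different animals and did not deviate together (correlations from -0.41 to 0.26), and the fit with the replicate number as a block gave 0 calls (0.478% of all). Counts between classes (194) ran from 150 to 197 and those between sister types (25) from 21 to 25. The share of all features called moved with the setting too, in rods minus cones from 13.8% (no filter) to 44.0% (clusters). For the counts between classes no such share is given here for each alternative. How steady these counts are can therefore not be read from them alone. Single values were followed over the settings for the 17 stage results with an unadjusted p under 0.05. The same was done for each member's leading class against the next and for the values between sister types. The other stage tests and pairs of classes entered only the counts. Of the values followed, 410 of 422 for stage, 87 of 98 between classes and 205 of 224 between sister types kept their direction and their side of the threshold. The sign changes below are among these values only. The values that changed sign were CADM1 in rods minus Müller cells (-0.02), at 0.16 without infant retinas and 0.13 in version 7.0.1 alone, and CADM2 in rods minus ACs (0.03), at -0.038 with clusters, -0.034 without senile retinas and -0.021 in version 5.0.1 alone. With no filter, S-cones minus L-cones turned to -0.079 for CADM2 and -0.12 for CADM4. Astrocytes minus Müller cells turned to 0.017 (stricter gate) and 0.37 (clusters) for CADM3. Glycinergic minus GABAergic ACs turned to -0.023 for CADM4 and -0.68 for NECTIN3 with clusters and to 0.20 for NECTIN2 with the stricter gate. The causes were not tested. S-cones and L-cones could not be compared by clusters, which separated them in too few retinas, and no member has a numbered copy to add. Rods, astrocytes, S-cones and microglia have the fewest nuclei, and CADM4, NECTIN1, NECTIN2 and NECTIN3 have few UMIs there.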
